A study of Mus musculus with 42 samples.

Results

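The mouse expression array used in this study carries, beside its probes to RefSeq transcripts, probes to stretches of the genome that are named only by chromosome, start and end. The transcripts read by these interval probes were followed through the conversion of mouse embryonic stem cells (ESCs) into anterior definitive endoderm (ADE). Of 55681 unique probes 16194 were interval probes, to 3543 intervals. A probe was kept when the scanner software marked it well above background on all 3 arrays of at least 1 of the 14 groups, and 7107 probes (43.9% of the interval probes) in 2536 intervals met this rule. Of the 28066 RefSeq probes 20605 (73.4%) reached the same mark. The interval names carry coordinates of mouse build mm9, and nearly all end in F or R, which is taken here as the strand the probe reads, although no file defines the letters. F was carried by 3446 of the kept probes, R by 3654 and no letter by 7. The probes were chosen by their brightness, so detection and level are described here and not tested.

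Many such intervals were put on arrays of this kind to read long noncoding RNAs, transcripts that are spliced and polyadenylated like messenger RNA but hold no long reading frame. Their levels often change sharply between cell states, and some act on genes close to where they are made. An interval may also hold an exon or an extended end of a coding gene. A long interval can therefore hold more than 1 transcript, and several probes to 1 interval need not read the same RNA.

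Total RNA was labelled with Cy3 and hybridised to 42 one-colour Agilent arrays, 3 for each of 14 groups, from independent experiments. All cells came from 1 mouse ESC line in which green fluorescent protein (GFP) reports Gsc, a gene of the primitive streak and mesendoderm, and RedStar reports Hhex, a gene of definitive endoderm. The untreated groups were ESCs grown with LIF, unsorted cells on day 2 of ADE differentiation (d2), and cells sorted by the reporters: d3 G- and G+, d4 G- and G+, d5 G-, Glow and Ghigh, and d6 G+H- and G+H+, where G stands for Gsc-GFP and H for Hhex-RedStar. The other 3 groups were collected on day 6 and their labels name no sort. Their arrays shared no slide with the untreated groups, so differences between these sets cannot be told apart from slide. Control cultures had DMSO before and during differentiation, ADE_EPZ cultures had DMSO before and 2.5 µM EPZ6438 during it, and ES_EPZ cultures had 2.5 µM EPZ6438 before it and DMSO during it. EPZ6438 blocks the enzyme EZH2, through which the complex PRC2 marks histones at silent developmental genes.

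Markers of the labelled states moved through the groups. The mean log2 intensity of 6 pluripotency markers was 13.23 in ESCs and 6.97 in d6 G+H+ cells, and that of 5 endoderm markers was 5.50 and 13, with Sox17, Cer1 and Cxcr4 well above background on no ESC array. Among other lineages, 3 mesoderm markers averaged 10.02 in G+ cells of d3 but 6.71 in those positive for both reporters at d6, 3 visceral endoderm markers averaged 4.61 in ESCs, with 0 of 3 on all ESC arrays, and 7.47 in d6 G+H+ cells, and the mean of 3 neural markers lay between 7.30 and 8.50 in all groups, with Pax6 from 4.58 to 6.96 and Nes from 10.77 to 12.59. The number of probes well above background ran from 24504 to 40428 per array.

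All levels below are log2 intensities of the deposited normalised table, on which a step of 1 is a doubling. The median of the kept probes' means over all arrays was 5.83, against 4.74 for the other interval probes and 6.81 for RefSeq probes. A mean over 8 was reached by 937 kept probes, over 10 by 330, over 12 by 111 and over 14 by 40. The kept probes were thus mostly dim and a small set was very bright. Well above background on all 42 arrays were 2722 of them (38.3%), while 886 (12.5%) were kept through a single group. Just inside the rule, these 886 had a median mean of 5.16. Just outside it, the 2045 interval probes that reached 2 of 3 arrays of a group at best had a median mean of 5.02.

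The group that let most probes pass alone was d5 Ghigh, with 344 of the 886, followed by d3 G- with 128 and ES_EPZ with 103. From 3439 kept probes in Control to 5857 in d5 Ghigh were well above background on 3 of 3 arrays. Single arrays ran from 3533 in Control replicate 1 to 6916 in d3 G- replicate 3. The number of detected probes moved with the array as well as with the group: on the arrays with the fewest and the most detected members, all probes of the array above background also lay at 24504 and 39612. In the untreated groups replicate 3 was always on slides that held no array of replicates 1 and 2. It had the most detected probes in most of these groups, but not in ESCs, d5 Ghigh or d6 G+H-. In d3 G- cells it had 39612, against 31732 and 30214 for replicates 1 and 2. The parts of array, replicate and slide in these counts were not tested. Median levels of the kept probes differed little between groups, from 5.79 in ADE_EPZ to 5.93 in d2.

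**Figure D1:**
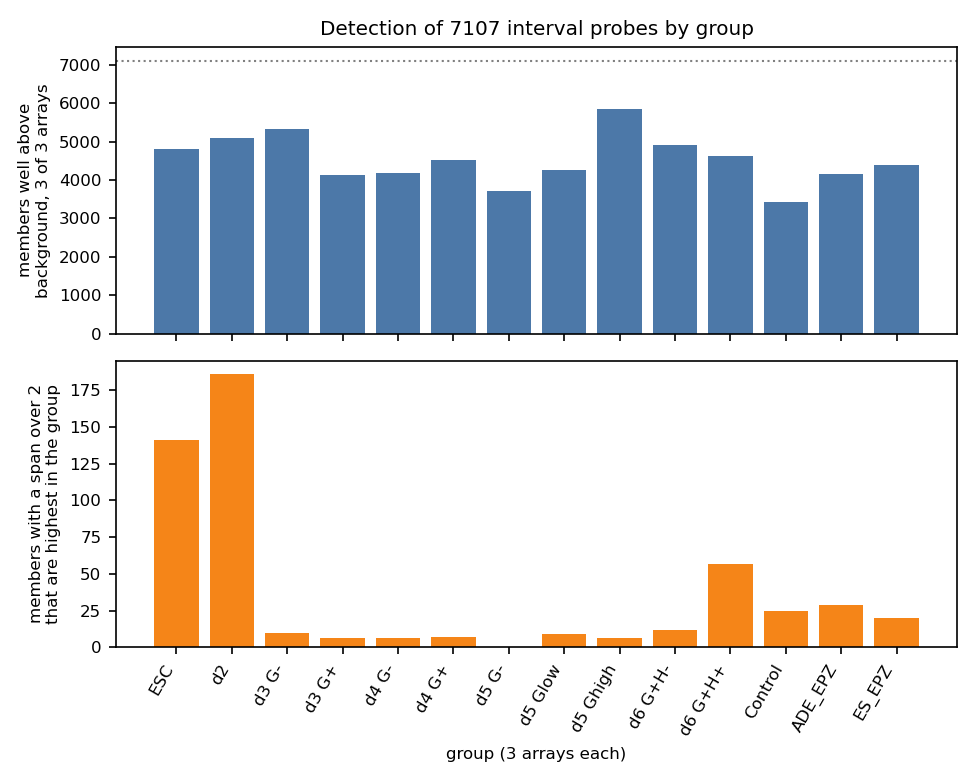
The upper panel gives, for each of the 14 groups, the number of kept interval probes well above background on all 3 arrays, with a dotted line at all 7107, and the lower panel the number of kept probes with a span over 2 whose highest group mean lies in that group. Detection runs from 3439 probes in Control to 5857 in d5 Ghigh, while the widely varying probes are mostly highest in d2 (186), ESC (141) and d6 G+H+ (57).

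For each probe the span between its highest and lowest group mean was taken. The median span was 0.73, against a median pooled SD within groups of 0.27. A span over 1 was seen for 2142 kept probes, over 2 for 514, over 3 for 162, over 4 for 60 and over 5 for 24. Of the 514 with a span over 2, 186 were highest in d2, 141 in ESCs and 57 in d6 G+H+ cells, and 0 in d5 G- cells. By chromosome the share of interval probes that were kept ran from 34.8% on chromosome 9 to 53.9% on chromosome 5, and the share of kept probes with a span over 2 from 2.99% on chromosome 11 to 11.2% on chromosome 13.

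Some of the brightest probes of the set hardly moved. A probe to chr11:22681800-22707775 on strand R had the highest mean, 16.87, and the smallest span of all, 0.14, with its 42 arrays between 16.76 and 16.97. Next came chr17:48068261-48087905 F with a mean of 16.66 and a span of 0.70, chr14:78924115-78938125 F with 16.51 and 0.60, and chr7:108209996-108216032 R with 16.28 and 0.31. The other bright ones were chr17:39982023-39983277 F at 16.17, chr6:116092274-116144199 F at 16.03, chr6:116123643-116124550 F at 16.01, which lies inside the interval before it, and chr17:17481706-17482457 R at 15.93. All 8 spans were at most 0.78. Quantile normalisation gives each array the same set of values, so probes that keep the top ranks can show little change. The other probes with the smallest spans, from 0.16 to 0.19, were dim, with means from 5.28 to 6.43: chr11:33414450-33450750 R, chr2:28151215-28151611 F, chr11:120046656-120050065 F, chr6:112552041-112560067 F, chr6:126766225-126771309 F, chr5:149751979-149808240 R and chr14:70483555-70484159 F. Means at this level are not far above 4.74, the median of the interval probes that were not kept.

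Differences between groups were tested with limma over all probes and all 42 arrays, and a call needed a Benjamini-Hochberg adjusted p no larger than 0.01 and a log2 fold change of 1.5 or more in either direction. Every interval probe that was called was a kept probe. A probe kept only through the group where it is bright had to differ, so the counts describe the kept probes and support nothing about them. In each comparison up to 3 probes per direction are named, with the largest fold change among those with the same sign in each of the 9 array pairs, 1 probe per interval. The arrays of named probes therefore do not overlap, by choice.

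The widest comparison was d6 G+H+ against ESCs, the end of differentiation against its start. It called 474 kept probes, 162 higher and 312 lower, beside a background of 6.57% of all probes called, 3.22% higher and 3.35% lower. The kept probes were called at 6.67%, close to the background, all interval probes at 2.93%, and of the 2722 kept probes detected on all 42 arrays 164 were called. The median change of the kept probes was -0.019 and that of all probes 0. Called higher were probes to 86 interval strands on 19 chromosomes, and called lower probes to 144 on 20 chromosomes. Where an interval strand with a lower call held at least 2 kept probes, all shared a sign in 113 of 125 cases. For higher calls this was so in 63 of 76. All of them were called in 44 of the 125 and in 21 of the 76. The called probe itself is among them, so part of this agreement is built in. In bulk RNA fewer cells of a type and less RNA per cell cannot be told apart.

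**Figure D2:**
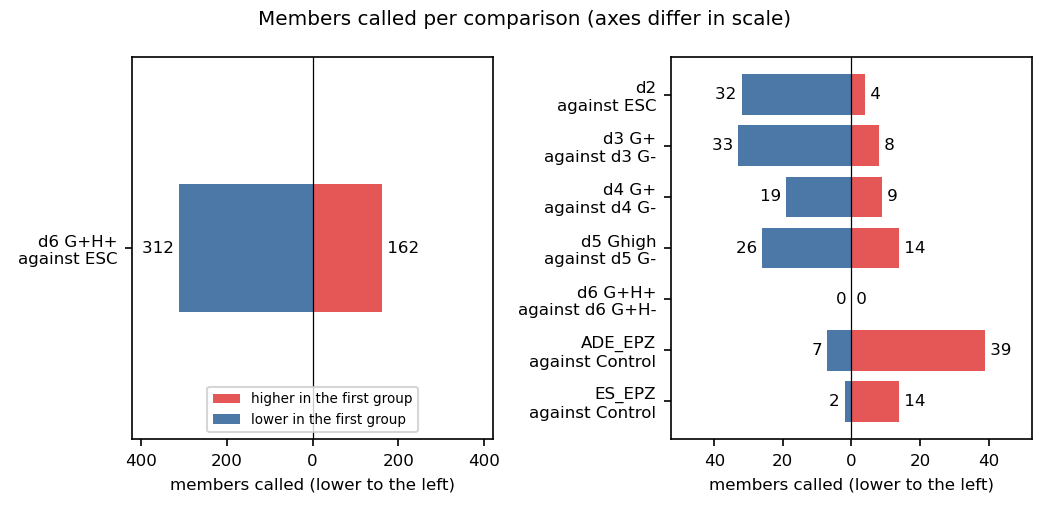
The bars count kept interval probes called higher and lower, with d6 G+H+ against ESC in the left panel and the other comparisons in the right panel, which has its own axis. The comparison over the whole differentiation called 162 higher and 312 lower, and d6 G+H+ against G+H- called 0.

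The probe with the largest rise read strand R of chr13:56851404-56851796, an interval of 393 bases. Its d6 G+H+ arrays were 11.49, 11.57 and 11.55 and its ESC arrays 4.83, 5.29 and 4.38. It was well above background on every d6 array and on 0 of 3 ESC arrays. The fitted log2 fold change was 6.70 ± 0.45 (SE, n = 3 per group; adjusted p = 6.13e-14). Since the ESC side is not above background, the fold is a lower bound of at least 104-fold, with each ESC array set to its own value or, where higher, to the dimmest probe well above background on that array. All 3 probes of the interval were called, with changes from 4.75 to 6.70.

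A pair of intervals close together on chromosome 5 rose next. On chr5:15033568-15033987 F the d6 G+H+ arrays were 10.49, 10.30 and 10.57 and the ESC arrays 5.13, 4.81 and 4.68. On chr5:15146475-15170100 F they were 9.71, 9.14 and 10.13 against 4.66, 4.53 and 4.68. Both probes were above background on every d6 array and on no ESC array. The changes were 5.58 ± 0.28 (SE; adjusted p = 8.28e-17), at least 47.9-fold, and 5.04 ± 0.37 (SE; adjusted p = 8.82e-13), at least 31.7-fold. All 3 probes of the first and all 4 of the second interval were called, although within the second the changes ran from 2.34 to 5.04.

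The largest measured falls were on chromosome 13. A probe to chr13:66381200-66410200 R was at 10.69, 10.33 and 11.57 on the ESC arrays and at 4.91, 5.13 and 5.61 on the d6 G+H+ arrays, 1 of them above background. Not far along the same chromosome, chr13:66888650-66902600 R was at 10.09, 10.01 and 11.06 in ESCs and at 4.79, 4.75 and 5.13 in d6 G+H+ cells, again with 1 array above background. These probes left the range of bright signals and ended near background. With 2 of 3 d6 arrays not above background, the sizes are measured differences and may understate the falls. The changes were -5.65 ± 0.25 (SE; adjusted p = 2.53e-18) and -5.49 ± 0.25 (SE; adjusted p = 4.8e-18), and all 4 and both kept probes of the intervals were called lower.

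A different course was taken by the short interval chr13:98267049-98267604 F. Its ESC arrays were 11.67, 10.97 and 11.62 and its d6 G+H+ arrays 6.76, 6.05 and 6.36, still above background on all 3. The change was -5.03 ± 0.27 (SE; adjusted p = 3.76e-16), and all 3 probes of the interval fell, by 4.90 to 5.03. On the 1 slide that held both an ESC and a d6 G+H+ array, the 6 named probes differed by -5.42 to 6.2. Their signs there were fixed by the choice of probes.

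The probes called at d6 were then read in the groups between, as a description, since the choice fixes their ends. The 162 that were higher had a median of 5.34 in ESCs, 5.39 in d2, 5.92 in d3 G+, 6.01 in d4 G+, 6.41 in d5 Ghigh cells, and at d6 7.58 without and 7.81 with the Hhex reporter. Against ESCs, 0 of them had moved by 1.5 in d2, 8 in d4 G+, 38 (23.5%) in d5 Ghigh and, at d6, 112 (69.1%) in G+H- cells. The measured rise of these probes was thus mostly between d5 and d6.

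The 312 that were lower had a median of 7.77 in ESCs and 7.76 in d2, 5.84 in d3 G+, 5.69 in d4 G+, 5.48 in d5 Ghigh and finally 5.32 in G+H+ cells of d6. By d3 G+ already 194 (62.2%) lay at least 1.5 under ESCs, and in d3 G- cells 69 (22.1%). The G- medians were 6.81 at d3, 6.31 at d4 and 6.10 at d5, above the G+ or Ghigh median of the same day each time. By this step of 1.5 the falls came earlier than the rises, and they went further in sorted G+ than in G- cells. All 312 were well above background on the 3 ESC arrays, but only 69 of the 162 that rose. A change near background is understated, so the timing of falls and rises cannot be compared on equal terms.

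**Figure D3:**
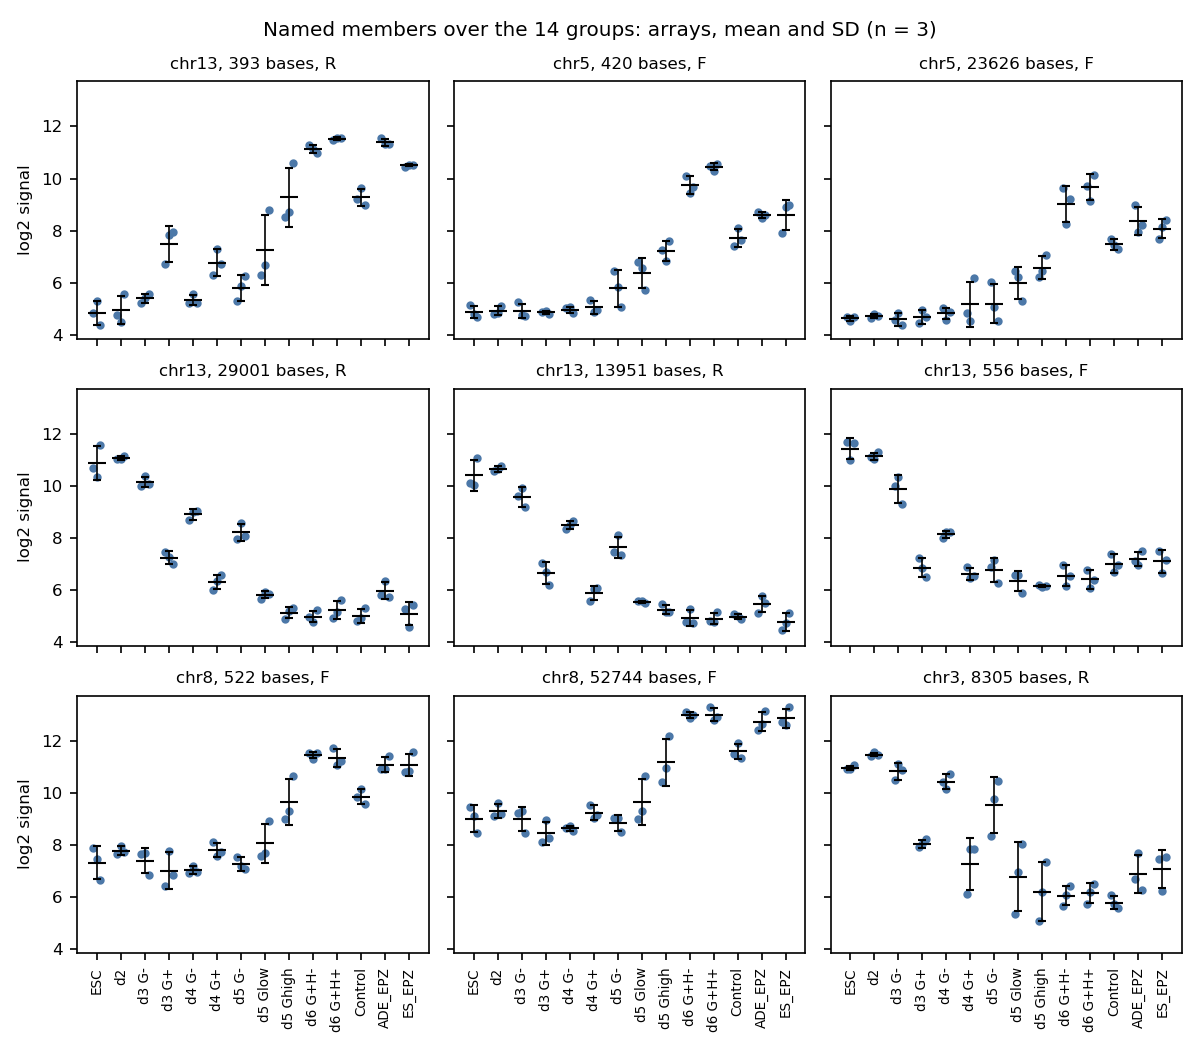
Each panel shows 1 named probe by chromosome, interval length and strand, with log2 intensity on the vertical axis. Along the horizontal axis are the 11 untreated groups and the Control, ADE_EPZ and ES_EPZ cultures. Points are single arrays, and a bar marks each group mean with its SD (n = 3). The 393-base interval on chromosome 13 climbs from 4.83 in ESCs to 11.54 in d6 G+H+ cells, while the 13951-base interval on the same chromosome falls from 10.39 to 4.89.

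The 393-base interval of chromosome 13 showed the late course in its group means: 4.94 in d2, 5.39 and 7.49 in d3 G- and G+, 5.33 and 6.77 in d4 G- and G+, 5.80, 7.25 and 9.28 in d5 G-, Glow and Ghigh, and 11.14 and 11.54 in d6 G+H- and G+H+ cells. It was higher in each sorted Gsc-positive population than in the G- cells of its day. The early course was shown by chr13:66888650-66902600 R, at 10.64 in d2, 9.56 and 6.63 in d3 G- and G+, 8.47 and 5.88 in d4 G- and G+, and 7.62, 5.52 and 5.23 in d5 G-, Glow and Ghigh.

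After 2 days of differentiation few probes were called. Of the kept probes 36 were called in d2 against ESCs, 4 higher and 32 lower, beside a background of 0.903%, 0.194% higher and 0.709% lower. The kept probes were called at 0.507%, and 20 of the 36 were detected on all 42 arrays. With 75th percentile scaling in place of quantile normalisation the split was 29 higher and 37 lower. The ESC arrays are also the control of the d6 comparison, so the ESC values enter both.

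The largest falls at d2 were in a pair of overlapping intervals on chromosome 8, read from strand R. The probe to chr8:119092623-119094219 was at 8.03, 8.49 and 7.86 in d2 and at 10.94, 10.19 and 10.54 in ESCs, and that to chr8:119090566-119097735 at 8.24, 8.70 and 8.11 against 10.82, 10.20 and 10.70. The changes were -2.43 ± 0.28 (SE; adjusted p = 2.13e-07) and -2.23 ± 0.27 (SE; adjusted p = 6.38e-07). All 3 and all 5 kept probes of the intervals were called, with changes from -2.43 to -2.28 and from -2.23 to -2.12. The probe to chr6:34548561-34612216 F was lower too, at 6.67, 5.65 and 5.86 against 8.55, 9.31 and 7.29, by -2.32 ± 0.53 (SE; adjusted p = 0.00401), with wide replicate spread.

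Rises at d2 were small. The probe to chr8:48480224-48480698 R was at 6.09, 6.77 and 6.18 in d2 and at 5.19, 4.38 and 4.32 in ESCs, with 0 of 3 arrays above background there. It was kept through d2 alone, as were 2 of the 4 probes called higher at d2, so its difference of 1.72, at least 3.07-fold, is a description of how it was chosen and no test. It was brightest in d2, with 5.00 in d3 G- cells and at most 4.83 in every other group. The probe to chr5:125713450-125735500 R was at 8.94, 8.82 and 8.62 against 6.55, 7.76 and 6.39, a change of 1.89 ± 0.44 (SE; adjusted p = 0.00558). A probe to chr6:5311375-5328075 F was at 7.0, 6.73 and 6.54 against 5.22, 5.45 and 5.02, a change of 1.53 ± 0.17 (SE; adjusted p = 2.22e-07), and the only one of 5 kept probes of its interval to be called. For all 6 named probes the sign was the same on both slides that held ESC and d2 arrays, which their choice had fixed. Without any 1 array of either group but ESC replicate 2, chr5:125713450-125735500 was not called, with changes from 1.64 to 1.98. The call of chr6:5311375-5328075 ended without ESC replicate 3 (1.42) or d2 replicate 1 (1.41), and that of chr6:34548561-34612216 without ESC replicate 1 (-2.24) or 2 (-1.86) or d2 replicate 2 (-2.12) or 3 (-2.23). With a normexp offset of 50 the changes of chr8:48480224-48480698 and chr6:5311375-5328075 were 0.91 and 0.94, under the threshold.

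The sorted populations ask what separates cells with more Gsc-GFP from those of the same day with less. Gsc RNA itself was well above background on all 3 arrays of every G- group. At d3 its mean was 8.23 in G- and 11.78 in G+ cells, against 4.96 in ESCs, where 0 of 3 arrays were above background. In bulk RNA the contrast is therefore of a lower with a higher mean of Gsc. Whether all or only some G- cells held this RNA cannot be told from it. At d3, 41 kept probes were called in G+ against G- cells, 8 higher and 33 lower, beside a background of 0.984%, 0.372% higher and 0.612% lower, and 6 of the 41 were detected on all 42 arrays. At d4, 28 were called, 9 higher and 19 lower, beside 1.13%, 0.409% higher and 0.722% lower, and 3 of the 28 were detected on all arrays. At d5, 40 were called in Ghigh against G- cells, 14 higher and 26 lower, beside 1.27%, 0.481% higher and 0.788% lower, and 11 of the 40 were detected on all arrays. Fitted to the d5 G- and Ghigh arrays alone, 4 were called. The shares of the kept probes that were called were 0.577%, 0.394% and 0.563%. The split at d4 was 0 higher and 11 lower with a normexp offset of 50 and 9 higher and 39 lower with 75th percentile scaling. That scaling also moved the median of all probes at d3 by 0.177. The pluripotency markers averaged 11.28 in G- and 9.23 in G+ cells at d3, 10.70 and 8.53 at d4, and 10.06 and 7.29 in G- and Ghigh cells at d5, and their part in these calls was not tested.

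The 3 intervals named for the falls at d6 were also the 3 named as lower in G+ cells at d3. At d3 the probe to chr13:66888650-66902600 R was at 7.04, 6.66 and 6.19 in G+ and at 9.60, 9.91 and 9.17 in G- cells, a change of -2.93 ± 0.25 (SE; adjusted p = 1.49e-09). The neighbouring chr13:66381200-66410200 R was at 7.45, 7.26 and 6.98 against 9.98, 10.35 and 10.06, a change of -2.90 ± 0.25 (SE; adjusted p = 1.54e-09). A probe to chr13:98267049-98267604 F was at 6.95, 6.62 and 5.84 against 9.67, 10.12 and 8.79, a change of -3.06 ± 0.32 (SE; adjusted p = 6.12e-08). Every kept probe of these 3 intervals was called lower at d3.

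At d4 and d5 the largest fall was that of chr3:75451370-75459674 R. Its d4 G+ arrays were 6.10, 7.84 and 7.84 and its G- arrays 10.41, 10.12 and 10.70. Its d5 Ghigh arrays were 5.06, 6.17 and 7.34 and its G- arrays 8.33, 9.74 and 10.46. The changes were -3.15 ± 0.54 (SE; adjusted p = 0.000182) and -3.32 ± 0.54 (SE; adjusted p = 7.56e-05), and all 4 probes of the interval were called on both days. Replicates of both sorted populations spread widely at d5, but the lowest G- array stayed above the highest Ghigh array.

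The probe to chr5:125713450-125735500 R, higher at d2, also differed between the sorted cells. It was at 5.63, 6.47 and 5.70 in d4 G+ and at 9.07, 8.74 and 9.0 in d4 G- cells, and at 5.42, 5.09 and 5.13 in d5 Ghigh and at 7.26, 8.63 and 9.06 in d5 G- cells. The changes were -3.00 ± 0.44 (SE; adjusted p = 3e-05) and -3.10 ± 0.44 (SE; adjusted p = 1.28e-05). Over the course it lay at 8.79 in d2, 8.59 in d3 G-, 8.94 in d4 G- and 8.31 in d5 G- cells, above its 6.90 in ESCs, and at 5.67 and 5.21 in d5 Glow and Ghigh cells. Its high groups were d2 and the G- cells. The interval chr13:66381200-66410200 R was lower in G+ cells on the later days as well, with 1 probe at 5.51, 5.71 and 5.93 against 8.49, 8.40 and 8.57 at d4 (-2.77 ± 0.45, SE; adjusted p = 0.000118) and another at 4.89, 5.17 and 5.28 against 7.95, 8.57 and 8.07 at d5 (-3.08 ± 0.25, SE; adjusted p = 4.24e-10).

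Probes higher in G+ cells were fewer. The probe to chr3:86827945-86886695 R was at 7.78, 8.27 and 7.82 in d3 G+ and at 6.31, 5.42 and 5.47 in d3 G- cells, and at 8.80, 7.73 and 8.32 against 6.88, 6.2 and 6.33 at d4. The changes were 2.23 ± 0.37 (SE; adjusted p = 0.000115) and 1.81 ± 0.37 (SE; adjusted p = 0.00153), called for 2 of the 4 kept probes each time, and the d4 call ended without d4 G- replicate 2 (1.68) or 3 (1.74) or G+ replicate 1 (1.55). From d3 G+ on it stayed at 7.60 or more in every later group but the G- populations of d4 and d5, at 6.47 and 6.94.

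In the sorted cells, signals on chromosomes 17 and 1 were high on the middle days and low at d6, but not in the day 6 Control cultures. The Control arrays were on other slides and their labels name no sort, so sorting and slide cannot be told apart there. A probe to the long interval chr17:3198868-3394643 F was at 7.30, 8.26 and 8.04 in d3 G+ and at 5.64, 5.97 and 5.86 in d3 G- cells (2.04 ± 0.27, SE; adjusted p = 4.23e-06), and at 7.17, 7.26 and 7.38 against 5.88, 5.40 and 5.22 at d4 (1.76 ± 0.27, SE; adjusted p = 5.75e-05), where an offset of 50 gave 1.18. It was back at 5.16 and 5.03 in d6 G+H- and G+H+ cells, near its ESC level of 4.80, but at 7.08 in Control. Of the 9 kept probes of this interval 2 were called at d3 and 1 at d4. The probe to chr1:186560855-186563399 F was at 7.54, 6.58 and 7.21 in d4 G+ and at 4.52, 4.39 and 5.12 in d4 G- cells (2.43 ± 0.29, SE; adjusted p = 7.88e-07). All 3 probes of this interval were called at d4, and the level was 7.33 in d5 Glow, 7.03 in d5 Ghigh cells, 4.60 in G+H+ cells of d6 and 6.82 in Control.

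The late riser chr13:56851404-56851796 R already differed at d3, at 6.70, 7.83 and 7.94 in G+ and 5.2, 5.42 and 5.55 in G- cells (2.10 ± 0.45, SE; adjusted p = 0.00271). That call ended without d3 G- replicate 1 (2.01) or 2 (2.11) or G+ replicate 2 (1.93) or 3 (1.87). At d5 it was at 8.53, 8.73 and 10.59 in Ghigh and at 5.28, 5.87 and 6.26 in G- cells, a change of 3.48 ± 0.45 (SE; adjusted p = 2.36e-06). All 3 probes of the interval were called at d5 and 1 of 3 at d3. Ghigh replicate 3 stood above the others of its group.

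A pair of overlapping intervals on chromosome 8 rose in Ghigh cells too. The probe to chr8:90048940-90049461 F was at 8.99, 9.29 and 10.64 in d5 Ghigh and at 7.54, 7.17 and 7.05 in d5 G- cells, and that to chr8:89996710-90049453 F at 10.40, 10.94 and 12.16 against 9.01, 9.01 and 8.48. The changes were 2.39 ± 0.36 (SE; adjusted p = 3.33e-05) and 2.34 ± 0.35 (SE; adjusted p = 2.9e-05). They were again highest on Ghigh replicate 3. All 6 named probes of d3, of d4 and of d5 kept their sign within the 2, 2 and 1 slides that held both groups. The choice of probes by sign in all 9 array pairs had fixed this.

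Whether the difference between Gsc-positive and G- cells itself changed with the day was tested as an interaction. At d5 the positive side was the Ghigh gate alone, without Glow, so day and gate cannot be told apart there. Between d3 and d4 0% of all probes and 0 kept probes were called by limma. Of the 7107 kept probes 206 had an unadjusted limma p under 0.05, a smaller share than that threshold gives without any difference. Between d3 (G+ against G-) and d5 (Ghigh against G-) 9 kept probes were called, beside 0.287% of all probes, 0.162% higher and 0.126% lower, and 8 of the 9 were detected on all 42 arrays. All 9 differences were more positive at d5. They fell in the chromosome 8 pair just described, in chr13:98267049-98267604 F and in chr17:34003823-34011015 F. The comparison of d6 G+H+ with G+H- cells called 0% of all probes and 0 kept probes by limma, in this fit and in every alternative. Here 239 of the 7107 kept probes had an unadjusted limma p under 0.05, again a smaller share than that threshold gives without any difference.

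The cultures with EPZ6438 address what PRC2 inhibition during or before differentiation changed. With the inhibitor during differentiation (ADE_EPZ), 46 kept probes were called against Control, 39 higher and 7 lower, beside a background of 1.38%, 0.97% higher and 0.406% lower. The kept probes were called at 0.647%, 19 of the 46 were detected on all 42 arrays, and the higher calls lay in 24 interval strands. The split was 22 higher and 1 lower with a normexp offset of 50, and 50 higher and 29 lower with 75th percentile scaling, which moved the median of all probes by -0.104. With the inhibitor before differentiation (ES_EPZ), 16 were called, 14 higher and 2 lower, beside 0.233%, 0.199% higher and 0.0341% lower, and 5 of the 16 were detected on all 42 arrays. Fitted to the ES_EPZ and Control arrays alone, limma called 0. In the limma fit over all arrays 603 of the 7107 kept probes had an unadjusted p under 0.05, a count not set against all probes. That split was 11 higher and 0 lower with an offset of 50. Without Control replicate 3 the counts were 29 and 9, and without ES_EPZ replicate 3 the second was 10. Both regimens were set against the same 3 Control arrays. Cell state markers differed too: the endoderm list averaged 11.44 in Control, 12.69 in ADE_EPZ and 12.26 in ES_EPZ cultures, the mesoderm list 9.92, 8.81 and 9.28, and the pluripotency list 7.47, 8.19 and 7.67. Cer1 and Hhex rose most among endoderm markers, while with ES_EPZ Sox17 (11.53 against 11.54) and Cxcr4 (9.85 in both) did not rise. Kdr of the mesoderm list did not fall, at 10.84, 10.85 and 11.17. The primitive streak and mesendoderm list averaged 10.46, 9.89 and 10.37. In ADE_EPZ its Mixl1 (6.26 against 9.61), Eomes and T were lower, and Gsc (12.97 against 11.98) and Lhx1 higher. Zfp42 was at 7.87 in Control and 9.38 in ADE_EPZ cultures and Esrrb at 7.61 and 9.20, the largest rises of the 6. Sox2 was lower in ADE_EPZ than in Control cultures, at 8.14 against 8.45, and Nanog hardly moved, at 6.44 against 6.36. Markers on the 3 arrays of each group numbered 5 of 5 endoderm, 3 of 3 mesoderm and 6 of 6 pluripotency markers, and their part in the calls was not tested.

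The largest rise with ADE_EPZ was on chr7:106529142-106529752 R, at 9.71, 9.59 and 9.22 against 6.49, 6.84 and 6.38 in Control. The change was 2.93 ± 0.25 (SE; adjusted p = 7.28e-09), and within the 3 slides, each with 1 array of every regimen, 2.38 to 3.33. In untreated cells this probe was at most 5.36 up to d5 Glow and then reached 6.52 in d5 Ghigh cells before 8.74 in G+H+ cells of d6. The other kept probe of the interval changed by 0.32, so the 2 probes of this interval of 611 bases disagree.

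On chr8:67552315-67561235 R the ADE_EPZ arrays were 11.50, 11.2 and 10.87 and the Control arrays 8.71, 9.12 and 8.08. The change was 2.55 ± 0.50 (SE; adjusted p = 0.000618), from 1.74 to 3.42 within slides. On chr10:83185606-83225506 F they were 9.80, 9.80 and 9.82 against 7.48, 7.62 and 7.06, a change of 2.42 ± 0.33 (SE; adjusted p = 7.24e-06), from 2.20 to 2.74 within slides, and all 3 kept probes of the interval were called. Control was the lowest of all 14 groups for both probes, at 8.64 and 7.39, and ESCs the highest, at 12.16 and 10.06. The ESC arrays were on other slides than Control.

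Lower with ADE_EPZ was chr17:3346621-3347209 F, at 6.25, 5.08 and 5.29 against 7.92, 6.88 and 8.29. It was above background on 1 of 3 ADE_EPZ arrays and on every Control array. The change was -2.16 ± 0.32 (SE; adjusted p = 1.77e-05), from -2.84 to -1.59 within slides, and all 3 probes of the interval were called. This interval lies inside chr17:3198868-3394643 F, with 1 probe at 5.87, 5.21 and 5.24 against 7.27, 6.53 and 7.43 (-1.64 ± 0.27, SE; adjusted p = 9.7e-05). Without Control replicate 3 its change was -1.46 and not called. It was the only 1 of the 9 kept probes of the longer interval to be called, and their changes ran from -1.64 to 0.13. In sorted untreated cells the inner probe peaked at 8.37 in G+ cells of d3 but was at 5.22 in d6 G+H+ cells. The third was chr2:175432867-175469471 R, at 5.19, 5.38 and 5.65 against 6.84, 7.07 and 7.62 (-1.77 ± 0.26, SE; adjusted p = 1.68e-05), highest in Control of all groups at 7.18. The other of its 2 kept probes changed by -0.71 and was not called.

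With ES_EPZ the largest rises were in a pair of overlapping intervals on chromosome 6. The probe to chr6:40699474-40719122 F was at 10.19, 9.79 and 10.12 against 8.29, 8.22 and 7.27 in Control, and that to chr6:40693617-40720167 F at 9.94, 9.41 and 9.82 against 7.98, 8.02 and 6.86. The changes were 2.11 ± 0.32 (SE; adjusted p = 0.00027) and 2.10 ± 0.32 (SE; adjusted p = 0.000441), from 1.5 to 2.92 and from 1.42 to 3.08 within slides. Control replicate 3 was the lowest array of both, and without it the second changed by 1.72 and was not called. In ADE_EPZ cultures these probes averaged 9.76 and 9.48, and in d6 G+H+ cells 9.09 and 8.84. With ES_EPZ 4 of the 5 kept probes of the second interval were called, with changes from 0.65 to 2.10.

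The probe to chr14:26973425-26986650 F was at 11.86, 11.16 and 12.15 in ES_EPZ cultures against 9.94, 9.99 and 9.33 in Control, a change of 1.97 ± 0.26 (SE; adjusted p = 6.96e-05), from 1.22 to 2.53 within slides. It was brightest in ESCs, at 13.21, and dimmest in Control, at 9.76, on slides that held no ESC array. Of the 3 kept probes of this interval 2 were called, with changes from 0.66 to 1.97. Lower with ES_EPZ was again chr17:3346621-3347209 F, at 6.21, 6.40 and 5.45, a change of -1.68 ± 0.32 (SE; adjusted p = 0.0038), called for 2 of its 3 probes. Its call ended without Control replicate 1 (-1.57) or 3 (-1.38) or ES_EPZ replicate 1 (-1.77) or 3 (-1.39), and the other 3 probes named for ES_EPZ had adjusted p from 0.0438 to 0.0468 when the compared arrays were fitted alone.

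**Figure D4:**
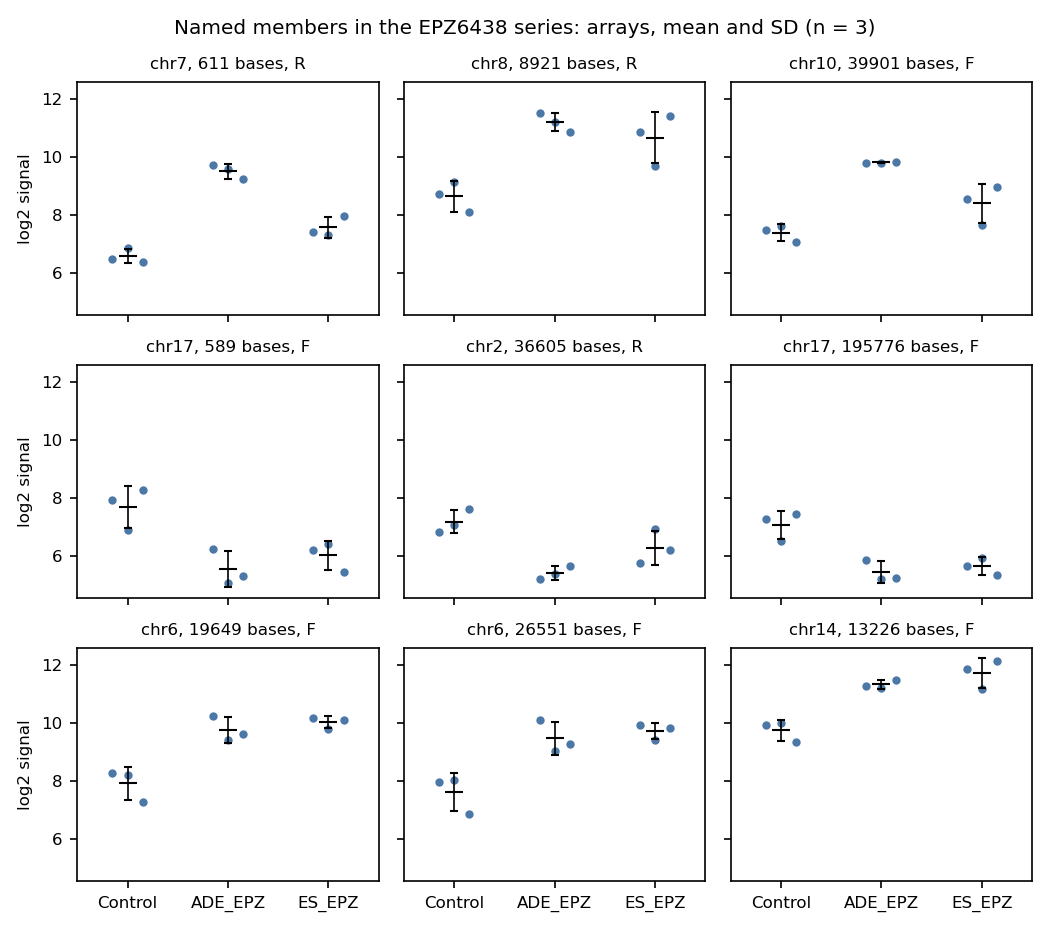
Each of the 9 panels shows 1 probe named for the EPZ6438 comparisons, with log2 intensity on the vertical axis, the Control, ADE_EPZ and ES_EPZ cultures along the horizontal axis, points for arrays and a bar at the mean with its SD (n = 3). The chromosome 7 probe separates ADE_EPZ, at 9.50, from ES_EPZ, at 7.56, and Control, at 6.57.

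The regimens were also compared with each other, where 0.0647% of all probes were called, 0.0593% higher and 0.00539% lower in ADE_EPZ, and 2 kept probes, both higher. One was the chromosome 7 probe above, and the other read chr9:40268246-40268441 R, at 7.54, 6.69 and 7.69 in ADE_EPZ and at 5.56, 5.82 and 6.01 in ES_EPZ cultures, with Control at 6.75, 5.58 and 6.42. The ADE_EPZ arrays of this probe were above every ES_EPZ array, but ADE_EPZ replicate 2 overlapped Control.

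Several probes to 1 interval and strand give a check on what is measured. Over all 42 arrays, 8109 pairs of kept probes to the same interval and strand had a median Pearson r of 0.45, and 5849 pairs to opposite strands of 1 interval of 0.10. For probes detected on every array the medians were 0.76 over 2183 pairs and 0.17 over 1085 pairs. For pairs in which both probes had a span over 2 they were 0.96 over 469 pairs and 0.71 over 39. These correlations are descriptions, since the points share groups, slides and normalisation. In each of these sets probes to 1 strand thus tracked each other more closely than probes to opposite strands. For both kinds of pair the median r was higher where the signal was bright or variable. The 39 opposite-strand pairs came from 10 intervals, and choosing pairs by span can itself raise r.

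**Figure D5:**
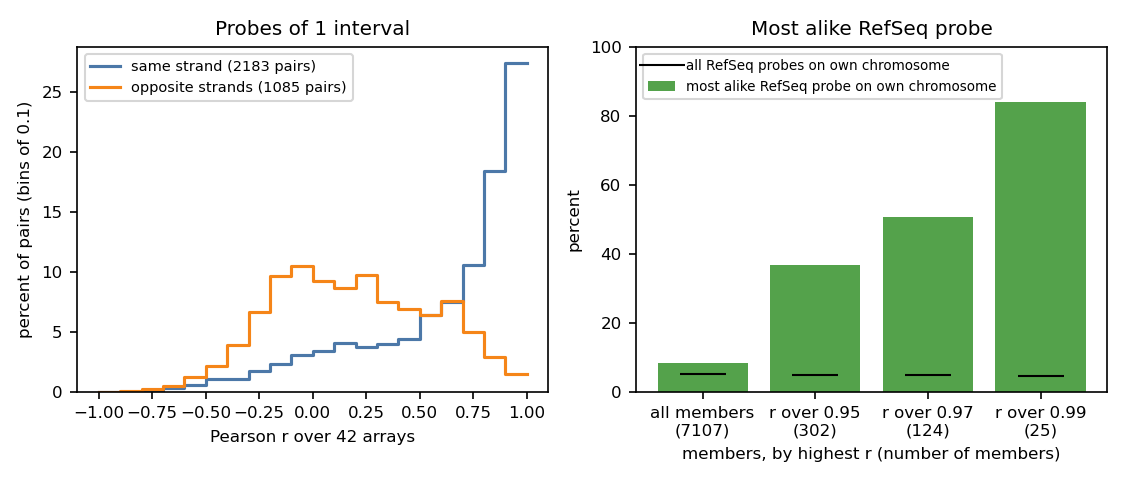
The left panel is a histogram of Pearson r over 42 arrays for pairs of probes to 1 interval that were both detected on every array, for the same strand (2183 pairs) and for opposite strands (1085 pairs). The right panel gives the percentage of kept probes whose most alike RefSeq probe lies on their own chromosome, rising from 8.29% of all to 84.0% of those with r over 0.99, with dashes at the share of RefSeq probes on that chromosome.

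Members lay on both strands of 662 intervals. The pair with the brightest dimmer side was chr12:73838608-73862621, at a mean of 14.81 on F and 15.81 on R, which moved together (r = 0.80). On chr17:39960567-39992817 the means were 15.68 and 13.90 (r = 0.11). The others were chr7:108209996-108216032 at 11.02 and 16.28 (r = -0.29), chr2:151992806-152025456 at 10.88 and 11.18 (r = -0.19), and chr11:22681800-22707775 at 10.61 and 16.87 (r = -0.30). These probes were picked for brightness and most hardly moved, with a span of 0.34 for the chromosome 7 probe on F, equal to its pooled SD, so a low r says little about a shared course.

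No gene positions of build mm9 were used here, so the nearest genes of an interval are not given. Instead, each kept probe was set beside the RefSeq probe most like it over the 42 arrays, among 20360 that had a symbol and reached the same detection. This measure was chosen after the values had been seen. The most alike RefSeq probe was on the same chromosome for 589 of 7107 kept probes (8.29%), where on average 5.23% of RefSeq probes lie on a probe's own chromosome. For the 302 with r over 0.95 the share was 36.8%, for the 124 with r over 0.97 it was 50.8%, and for the 25 with r over 0.99 it was 84.0%, or 21 probes. A RefSeq probe and an interval probe may read the same RNA, which was not tested.

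The closest was a probe to chr8:94849929-94870274 R, with r = 0.998 to Crnde, a long noncoding RNA gene of chromosome 8. Its d6 G+H+ arrays were 9.87, 9.55 and 9.40 and its ESC arrays 5.55, 5.15 and 5.55, a change of 4.19 ± 0.34 (SE; adjusted p = 4.85e-12). With ADE_EPZ it differed by 1.48 ± 0.34 (SE; adjusted p = 0.00267), just under the fold threshold and not called. A probe to the overlapping chr8:94841965-94881130 R (r = 0.995), 1 of 2 among its 5 kept probes that were most like Crnde, rose by 3.91 at d6 and by 1.53 ± 0.37 (SE; adjusted p = 0.00437) with ADE_EPZ. All 4 kept probes of chr15:32167516-32174417 R were most like Snhg18, a small nucleolar RNA host gene of chromosome 15, and the closest (r = 0.997) was at 9.48, 8.89 and 9.32 in d6 G+H+ cells and at 6.69, 7.11 and 6.80 in ESCs (2.37 ± 0.24, SE; adjusted p = 6.91e-10). The chromosome 8 pair that rose in d5 Ghigh cells was most like Gm2694 of chromosome 8 (r = 0.994 and 0.993), in 3 of 3 probes each.

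Among the falling probes, those of chr3:75451370-75459674 R were all 4 most like Platr10 of chromosome 3 (r = 0.99 for the one named), and chrX:135882029-135892277 R and chrX:135880775-135891525 R were most like Platr21 of chromosome X (r = 0.993 and 0.992), in 3 of 3 and 5 of 6 probes, falling by 2.01 and 2.27 at d6. Both symbols stand for pluripotency-associated noncoding transcripts. The probe to chr13:65716675-65765575 F, with r = 0.995 to Gm10324 of chromosome 13 and the only one of 3 kept probes of its interval most like it, was at 6.27, 5.39 and 6.45 in d6 G+H+ cells and at 10.35, 9.97 and 11.29 in ESCs (-4.50 ± 0.26, SE; adjusted p = 2.1e-15). The early falling pair on chromosome 8 was most like Cdyl2 of that chromosome (r = 0.955 and 0.945), a chromodomain protein gene, in 3 of 3 and 5 of 5 probes. The chromosome 14 probe that was higher with ES_EPZ was most like Anxa11, an annexin gene of chromosome 14 (r = 0.992; 2 of 3 probes), and so was chr14:26834450-26847000 F (r = 0.995; 4 of 5 probes), which rose by 1.51 with ADE_EPZ and by 1.92 with ES_EPZ.

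For other named probes the closest RefSeq probe lay elsewhere in the genome. The largest riser, chr13:56851404-56851796 R, was most like Cer1 (r = 0.978; 1 of 3 probes), a secreted Nodal antagonist of the anterior endoderm encoded on chromosome 4. Both chromosome 5 risers were most like Tle2 of chromosome 10 (r = 0.982 and 0.963; 1 of 3 and 3 of 4 probes), a corepressor gene. The falling chr13:66381200-66410200 R and chr13:66888650-66902600 R were most like Dppa4 of chromosome 16 (r = 0.987 and 0.992; 1 of 4 and 2 of 2 probes), a pluripotency-associated gene. The probe to chr13:98267049-98267604 F was most like Rpl39l of chromosome 16 (r = 0.978), a ribosomal protein gene, as were all 3 probes of its interval. These are likenesses of course over the same 42 arrays and say nothing on control.

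Intervals also lay in runs. Chained where no more than 50 kb parted neighbours, those with a kept probe formed 1434 runs, of which 810 held 1 interval and 624 at least 2, up to 11. The run at chr1:138442536-138632310 held 11 intervals and 36 kept probes, with spans from 0.36 to 5.18, and 6 of its probes were called lower at d6. Its most variable probe, to chr1:138592780-138622719 F, was at 8.38, 13.18 and 8.41 in d2, so that replicate 2 stood far above the others. It was at 8.22, 8.20 and 8.15 in ESCs and at 4.54, 4.48 and 5.40 in d6 G+H+ cells, a change of -3.38 ± 0.63 (SE; adjusted p = 6.75e-05). The brightest probe of the run, to chr1:138442536-138520766 R, had a mean of 10.39 and a span of only 0.55, so that the run did not move as 1 unit.

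The run at chr12:110842149-110988678 held 10 intervals and 47 kept probes, 31 on F and 16 on R. Of these 22 were highest in d2, and 7 of its 25 probes with a span over 1 were most like Mirg, a noncoding RNA gene of the imprinted cluster on chromosome 12. Its brightest probe, to chr12:110894095-110899517 F, ran from 7.93 to 11.68 over the arrays, with means of 10.39 in ESCs, 8.59 in d5 Glow and 11 in d6 G+H+ cells. Its most variable, to chr12:110842154-110883594 F, was lowest in d5 Glow at 7.95 and highest in d6 G+H+ at 10.47, where the change from ESCs of 1.29 ± 0.40 (SE; adjusted p = 0.0139) was not called.

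Quieter were the runs at chr13:94180737-94203935, with 11 intervals, 25 kept probes, spans of at most 1.89 and a brightest probe (chr13:94200051-94200598 R) at 9.04, and at chr8:19678750-20038750, with 10 intervals, 26 kept probes, spans of at most 1.15 and a brightest probe (chr8:19792940-19798868 F) at 11.17. A run on chromosome 18 held 11 intervals and 21 kept probes, 20 of them on F, with spans of at most 1.2 and a brightest mean of 9.54. None of the kept probes of these 3 runs was called in the d2, d3, d5, d6 against ESC, ADE_EPZ or ES_EPZ comparisons.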

How the data were processed

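The authors deposited, for each of 42 arrays, a scanner file with median intensity for every spot and its quality marks. They also deposited 1 table of log2 intensity, made in limma with normexp (offset 10) followed by quantile normalisation. That table gives the levels here. The scanner files, whose headers name build mm9, gave the probe names, slide and background marks. They hold 59305 non-control spots for 55681 probes, 432 printed more than once, with 0 saturated. Over each array the table had r of at least 0.9999 with values recomputed from the scanner files. No per-sample column was left unmapped.

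Groups and replicate numbers came from the labels. A model with 1 mean per group was fitted to the 42 arrays together (limma 3.58.1, statmod 1.5.0, R 4.3.3). P values were adjusted by Benjamini-Hochberg over 55681 probes per comparison. Permuting 3 arrays against 3 cannot give a p under 0.10, so limma's adjusted p is printed. Descriptions used Python 3.11.15 with pandas 2.3.3. The procedure was tested on simulated data.

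Named were, per comparison and direction, the 3 called members with the largest change that moved the same way in all 9 array pairs, then the 8 brightest, the 8 with the smallest span, 5 opposite-strand pairs and 5 runs, 1 probe per interval. Genes named as most alike were chosen after their values were seen, with symbols and chromosomes from a RefSeq table of GRCm38.p6. The members and lists were chosen with earlier results of these data known.

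Numbered replicates deviated together in d3, d4 and d6 G+H+ against G+H-, where every pair's correlation was over 0.1 (the lowest was 0.206, at d4). The main fit did not use this pairing, so its printed errors and adjusted p are unpaired. The replicate number entered only as a block in an alternative fit. Alternatives were recomputed values, a normexp offset of 50, no background correction, 75th percentile scaling, the replicate number or slide as a block, the compared groups only, stricter detection, all interval probes, and leaving out each array. Slide as a fixed block was chosen after seeing the data. The number of arrays limits the precision.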

Additional observations from a re-analysis of the deposited data

Results flagged for a closer look

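In 2 intervals on chromosome 8 and 2 others the difference between sorted populations was not the same at d3 and d5, by the interaction test over all probes. For the chromosome 8 pair the G+ to G- difference at d3 lay at or below -0.38 and the Ghigh to G- difference at d5 at or above 2.07. Probes to chr8:89996710-90049453 F gave differences of 2.90 (SE 0.50; limma adjusted p = 0.00129) and 2.75 (adjusted p = 0.00171), and those to chr8:90048940-90049461 F gave 2.77 (adjusted p = 0.00313), 2.69 (adjusted p = 0.00169) and 2.60 (adjusted p = 0.00166). The means of the first were 8.99 and 8.43 in d3 G- and G+ and 8.83 and 11.17 in d5 G- and Ghigh cells, with all 3 Ghigh arrays above all other arrays of these 4 groups. The intervals overlap, so these are not 5 independent signals.

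For the 3 probes to chr13:98267049-98267604 F the fall from G- to Ghigh cells at d5 was smaller than that from G- to G+ cells at d3. The interaction differences were 2.43 (limma adjusted p = 0.0033), 2.42 (adjusted p = 0.000522) and 2.29 (adjusted p = 0.00113). For the first the change was -3.06 at d3 and -0.63 at d5, where the G- mean itself was down from 9.53 to 6.42. The probe to chr17:34003823-34011015 F gave a difference of 1.63 (adjusted p = 0.000793), from -1.92 at d3 to -0.30 at d5, and a G- mean of 7.34 at d3 and 5.33 at d5.

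Between the EPZ6438 regimens, chr7:106529142-106529752 R was higher in ADE_EPZ than in ES_EPZ cultures by 1.94 (SE 0.25; adjusted p = 3.29e-05), with ES_EPZ arrays at 7.41, 7.31 and 7.97. The probe to chr9:40268246-40268441 R was higher by 1.51 (SE 0.27; adjusted p = 0.00224). Its mean was 6.25 in Control, 7.31 in ADE_EPZ and 5.79 in ES_EPZ cultures, and it was most like Apoa1, an apolipoprotein gene of chromosome 9 (r = 0.963).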

How the results depend on the processing

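Counts of called kept probes are given in the order d2, d6 G+H+ against ESC, d3, d4, d5, ADE_EPZ and ES_EPZ, where the counts above were 36, 474, 41, 28, 40, 46 and 16. A normexp offset of 50 gave 23, 231, 24, 11 and 22, and 23 for ADE_EPZ. No background correction gave 294 for d6, 18 for d4, 25 for d5 and 28 for ADE_EPZ. Scaling by the 75th percentile gave 66, 838, 74 and 48 for the first 4, 79 for ADE_EPZ and 8 for ES_EPZ. Fitting only the compared groups gave 4 for d5 and 0 for ES_EPZ. Among probes detected on all 42 arrays (2722 members, against 9152 when 2 of 3 arrays of a group sufficed) the counts were 20, 164, 6, 3, 11, 19 and 5. Leaving out single arrays gave 31 to 41, 462 to 509, 29 to 53, 24 to 35, 33 to 52, 29 to 49 and 9 to 22, and 0 to 0 for d6 G+H+ against G+H-. The other counts, with recomputed values, all interval probes or slide as a fixed or random block among them, stayed within 1.5 times of those above. With the replicate number as a block the counts were 40, 477, 43, 28, 41, 47 and 19, and 0 for d6 G+H+ against G+H-, within 1.5 times of those above, and no named probe lost its call under the block. Of 40 named probe and comparison pairs, 0 reversed in 569 fits, and 20 were called in every fit. The choice of probes by sign in all 9 array pairs fixed the sign in fits without single arrays or of the compared groups only. The call was lost by 15 with only the compared groups, 9 with an offset of 50, 6 without background correction, 6 with 75th percentile scaling, 2 with slide as a fixed and 1 as a random block. The cause was not tested. Depth limits the dim probes: near background a measured change understates a true one.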
